A study of Rattus norvegicus with 10 samples.

Results

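The genes described here encode the potassium channels and the hyperpolarization-activated HCN channels, with their accessory subunits. They were taken as every gene in the deposited expression table whose symbol begins with Kcn or is Hcn followed by a single digit. This gave 73 genes of 11615, and all 73 were found by symbol in the RefSeq gene table of assembly GRCr8. That table holds 99 protein-coding genes with such symbols, and the other 26 were not analysed here. The values come from RNA sequencing of hippocampal neurons of Wistar rats, grown in culture for 15 days. Cultures received a chemical long-term potentiation (cLTP) solution, meant to strengthen synapses across a whole dish, and were collected 5, 10, 60 or 120 min later. The mock cultures received a mock-cLTP solution, and no label used here gives their time of collection, so time since a change of solution and the cLTP stimulus cannot be told apart. Each of the 5 groups had 2 biological repeats, and all cultures had been treated with 5-fluoro-2-deoxyuridine and uridine to hold back glia.

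Potassium channels let potassium leave the cell, which sets the resting potential, ends action potentials and limits repetitive firing. Voltage-gated (Kv) pore subunits open on depolarization, calcium- and sodium-activated channels open when those ions accumulate, inward rectifiers and tandem-pore leak channels act near rest, and HCN channels carry a cation current that opens on hyperpolarization. In hippocampal pyramidal cells, A-type Kv channels and HCN channels of the dendrite shape how synaptic inputs add up, and both are known to be adjusted when synapses are potentiated.

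Between 32961534 and 54040657 reads stood behind each library, and each library's lowest value came to 9 to 20 reads, which leaves rarer channel transcripts out. Levels are CPM, read counts relative to the library total, divided by a library scaling factor (TMM). Tests are two-sided limma fits on log2(CPM + 1) over all 10 libraries, with p adjusted by Benjamini and Hochberg's method across the 11615 genes and calls made under 0.05. Fold changes are on that scale, which understates changes of low genes. In a principal component analysis of log2(CPM + 1) over all genes, the second 5 min library stood apart on the third component, at 15.56. The other libraries lay from -8.409 to 2.118. The log2 difference between the 5 min repeats had a standard deviation of 0.164, against 0.113 to 0.125 in the other 4 groups. The cultures were labelled as neurons, and astrocyte markers were abundant beside neuronal ones. The 8 neuronal markers summed to 3484 and 3671 CPM in mock, and the 7 astrocyte markers to 17250 and 17330 CPM. These sums are not corrected for transcript length.

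Sequence upstream of an annotated start was available (GRCr8) for 45 of the 73 genes, as the 250 bases before each such start. There were 2 windows for 5 of the genes. Motifs of factors that neuronal activity induces or activates were searched on both strands. The cyclic AMP response element TGACGTCA was in 0 of these genes' 50 windows and in 1.59% of all 33469 windows. Its core TGACG, which is also part of the full element, was in 8 of 50 (16%) and in 18.2% of all windows. The AP-1 motif TGANTCA was in 1 of 50, that of Kcnj16 (2%, against 6.34% of all windows). The EGR motif GCGNGGGCG was in 5 of 50, namely both of Kcnt1 and those of Hcn2, Kcng2 and Kcnh5 (10%, against 4.29% of all windows). Counted by gene this was 4 of 45 (8.89%). Of the 7 members called higher at 120 min 4 had a window, so the search does not cover all of the rises. Windows of 3 members that rose are shown, the one farther upstream where there are 2, chosen after their values were seen, because they let the upstream sequence of a gene that peaked at 60 min (Kcnj2) be read beside those of genes that rose at 120 min (Kcnt1 and Kcns3). Capitals mark matches to TGACG or to the EGR motif on either strand, and the windows lie at chr3:29081089-29081338 (plus strand), chr6:39584106-39584355 (minus strand) and chr10:96559975-96560224 (plus strand) in GRCr8.
Kcnt1: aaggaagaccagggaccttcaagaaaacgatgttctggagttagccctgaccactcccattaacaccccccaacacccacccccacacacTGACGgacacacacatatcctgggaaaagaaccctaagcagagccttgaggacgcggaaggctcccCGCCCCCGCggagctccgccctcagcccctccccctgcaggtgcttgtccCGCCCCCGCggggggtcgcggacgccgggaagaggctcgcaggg
Kcns3: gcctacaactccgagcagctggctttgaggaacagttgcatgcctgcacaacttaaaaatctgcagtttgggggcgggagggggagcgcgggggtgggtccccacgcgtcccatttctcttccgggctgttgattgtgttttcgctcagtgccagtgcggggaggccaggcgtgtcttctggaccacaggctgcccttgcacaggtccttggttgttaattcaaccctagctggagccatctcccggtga
Kcnj2: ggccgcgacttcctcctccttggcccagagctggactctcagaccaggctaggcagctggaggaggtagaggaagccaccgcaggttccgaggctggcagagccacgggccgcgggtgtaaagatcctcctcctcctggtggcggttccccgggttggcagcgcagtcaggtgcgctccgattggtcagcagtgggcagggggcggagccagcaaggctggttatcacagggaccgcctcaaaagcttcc
The Kcnt1 window shown held 2 EGR matches, 94 and 44 bases before its annotated start, and a TGACG match 160 bases before that start. The second Kcnt1 window, at a start farther downstream, held 1 EGR match, 16 bases before that start. The Kcnj2 window and both Kcns3 windows held no match to any of the motifs searched. The window of Kcng2, also highest at 60 min, is not shown and held 1 EGR match, 12 bases before its start. The Kcnj2 and Kcns3 windows shown end right before the RefSeq gene start. Both Kcnt1 windows, the second Kcns3 window and the Kcng2 window lie inside the annotated gene, downstream of that gene start. A match is a description of the sequence, and binding was not measured.

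In mock cultures the members spanned a wide range of levels. Compared per kilobase of the gene length in the deposited table, the highest was the Kv beta subunit gene Kcnab2 at 46.8 CPM per kb. Hcn2 at 30.3, Kcnj10 at 27.1 and Kcna1 at 23.2 CPM per kb were also high. The lowest was Kcnn4, an intermediate-conductance calcium-activated channel best known from blood cells, at 0.143 CPM per kb. Among the tandem-pore leak channels Kcnk1 led with 20.4 CPM per kb, among the silent Kv modifiers Kcnf1 with 12.3 CPM per kb, and among the EAG, ERG and ELK channels Kcnh3 with 9.18 CPM per kb. Kcnrg, the only member outside the channel families and a regulator of Kv assembly in human cells, stood at 2.73 CPM per kb.

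**Figure D1:**
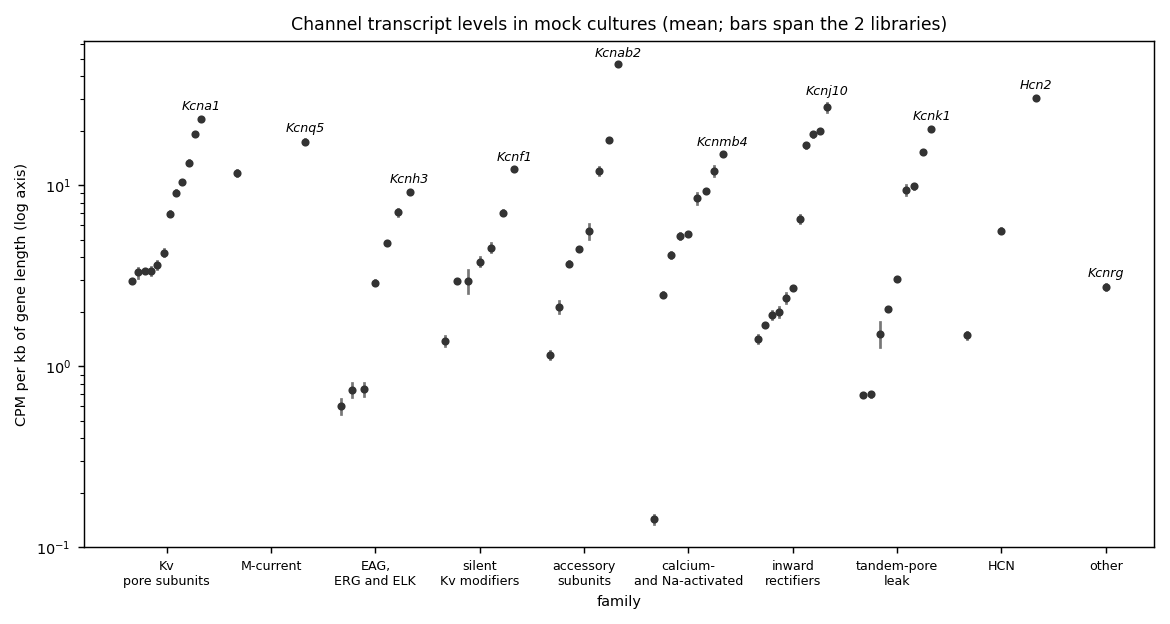
Mean level of 69 of the 73 genes in the 2 mock libraries by family, in CPM per kb of gene length on a log axis, with bars that span the libraries and the highest gene shown of each family named. Kcnab2 stood highest at 46.8 CPM per kb and Kcnn4 lowest at 0.143 CPM per kb.

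At 5 and 10 min no channel gene passed the test. At 5 min limma called 0 higher and 0 lower (0% of all genes in each direction), and limma-voom also called 0 in each direction. An unadjusted limma p under 0.05 was found at 5 min in 6 of 73 members and in 1862 of all 11615 genes. At 10 min limma called 0 higher (0.0344% of all genes) and 0 lower (0% of all genes), and limma-voom again called 0 and 0. The unadjusted limma p at 10 min was under 0.05 in 12 of 73 members and in 1148 of all 11615 genes. The median log2 fold change of the members was -0.03 at 5 min and -0.05 at 10 min, beside 0.00 for all genes at both times.

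The members with the smallest p at 5 min all lay below mock. Kcnt1 stood at 9 and 9.5 CPM in mock, 7.17 and 4.81 CPM at 5 min, 8.63 and 7.41 CPM at 10 min, 9.69 and 9 CPM at 60 min and 18.4 and 20.3 CPM at 120 min. Kcnt1 encodes the sodium-activated channel Slack, and its 5 min libraries lay below both mock libraries (log2 fold change -0.57 at 5 min, SE 0.13, limma adjusted p = 0.19). Kcnk16 was measured at 4.05 and 2.95 CPM in mock, 2.27 and 1.48 CPM at 5 min, 4.7 and 3.2 CPM at 10 min, 2.99 and 3.25 CPM at 60 min and 3.31 and 4.27 CPM at 120 min. Kcnk16, a pH-sensitive tandem-pore channel best known from the pancreas, was likewise below mock in both 5 min libraries (log2 fold change -0.65 at 5 min, SE 0.18, limma adjusted p = 0.19). Kcnj14 had levels of 6.9 and 6.09 CPM in mock, 5.35 and 4.44 CPM at 5 min, 7.08 and 7.46 CPM at 10 min, 6.5 and 5.76 CPM at 60 min and 8.13 and 7.82 CPM at 120 min. Kcnj14 encodes the inward rectifier Kir2.4 (log2 fold change -0.35 at 5 min, SE 0.10, limma adjusted p = 0.19). In each of these genes the 5 min library farther from mock was the second, the one that stood apart. With that library alone for 5 min, these 3 members were called lower (4.11%, near the 5.01% of all genes), and with the other alone 0 members and 0 genes of all were. The authors' deposited table puts Kcnk16 and Kcnt1 below mock at 5 min at an adjusted p under 0.05 (0.809% of all genes lower in the authors' deposited table) and 0 members above it (0.0344% of all genes).

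At 10 min the smallest p belonged to Kcnk9, Kcnj16 and Kcnq3. Kcnk9 was at 17.9 and 18.5 CPM in mock, 17 and 17 CPM at 5 min, 15.9 and 13.8 CPM at 10 min, 18.2 and 16.4 CPM at 60 min and 12.8 and 13.5 CPM at 120 min. Kcnk9 encodes the acid-sensitive leak channel TASK-3 (log2 fold change -0.28 at 10 min, SE 0.08, limma adjusted p = 0.31). Kcnj16 stood at 35.5 and 34.4 CPM in mock, 34.8 and 37 CPM at 5 min, 39.6 and 42.2 CPM at 10 min, 34.2 and 36.4 CPM at 60 min and 33.1 and 30 CPM at 120 min. Kcnj16 encodes Kir5.1, a partner of Kir4.1 in glia, and was the one of these above mock at 10 min (log2 fold change 0.22 at 10 min, SE 0.06, limma adjusted p = 0.31). Kcnq3 was measured at 64.8 and 70.5 CPM in mock, 61.9 and 71 CPM at 5 min, 62.6 and 51.9 CPM at 10 min, 70.2 and 69.9 CPM at 60 min and 54.4 and 53.3 CPM at 120 min. Kcnq3 encodes a subunit of M-channels, slow channels that muscarinic receptors close (log2 fold change -0.24 at 10 min, SE 0.08, limma adjusted p = 0.4). The authors' deposited table holds 0 members higher (0.577% of all genes) and 0 lower (0.56% of all genes) at 10 min.

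By 60 min 3 of 73 members had risen (4.64% of all genes rose) and 0 had fallen (1.95% of all genes fell), a share of rises near that of all genes. The median log2 fold change of the members was 0.01, beside -0.01 for all genes. The strong inward rectifier gene Kcnj2 (chromosome 10, 99437635 to 99438918, rn6) encodes Kir2.1, which holds the membrane near the potassium equilibrium. Kcnj2 had levels of 2.12 and 2.2 CPM in mock, 1.91 and 2 CPM at 5 min, 2.07 and 2.75 CPM at 10 min, 5 and 5.67 CPM at 60 min and 2.54 and 2.24 CPM at 120 min. Both 60 min libraries lay above all 8 others, and the 120 min cultures were not called against mock (log2 fold change 0.10 at 120 min, SE 0.12, limma adjusted p = 0.53). The rise was 2-fold at 60 min (log2 fold change 1.00 at 60 min, SE 0.12, limma adjusted p = 0.00013), and the 120 min cultures were below the 60 min cultures (log2 difference -0.90 from 60 min, SE 0.12, limma adjusted p = 0.00013).

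The other rises at 60 min were smaller. Kcng2 was at 4.65 and 6.25 CPM in mock, 6.39 and 7.09 CPM at 5 min, 6.16 and 7.23 CPM at 10 min, 9.48 and 7.69 CPM at 60 min and 5.35 and 4.88 CPM at 120 min. Kcng2 encodes Kv6.2, a silent subunit that forms no channel alone and modifies Kv2 channels (log2 fold change 0.58 at 60 min, SE 0.13, limma adjusted p = 0.02). Its libraries at 5, 10 and 60 min spread from 6.16 to 9.48 CPM, and at 120 min it was lower than at 60 min (log2 difference -0.64 from 60 min, SE 0.13, limma adjusted p = 0.0028). Kcne5 stood at 3.11 and 3.76 CPM in mock, 3.73 and 3.87 CPM at 5 min, 3.96 and 4.01 CPM at 10 min, 5.45 and 4.72 CPM at 60 min and 4.32 and 3.82 CPM at 120 min. Kcne5 encodes a single-pass accessory subunit known to inhibit KCNQ1 channels (log2 fold change 0.46 at 60 min, SE 0.11, limma adjusted p = 0.021). Kcng2 and Kcne5 were each called in 8 of 10 refits that left out a library, and without the first mock library or without the first 60 min library 1 member was called higher at 60 min (3.12% and 2.99% of all genes), against 5 without both 5 min libraries (5.31% of all genes). The authors' deposited table lists 7 members higher (5.9% of all genes) and 1 lower (3.33% of all genes) at 60 min. Beside the same 3, the authors' deposited table adds Kcnb2, Kcnk12, Kcnn1 and Kcnn3 on the higher side and Kcnd1 on the lower.

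**Figure D2:**
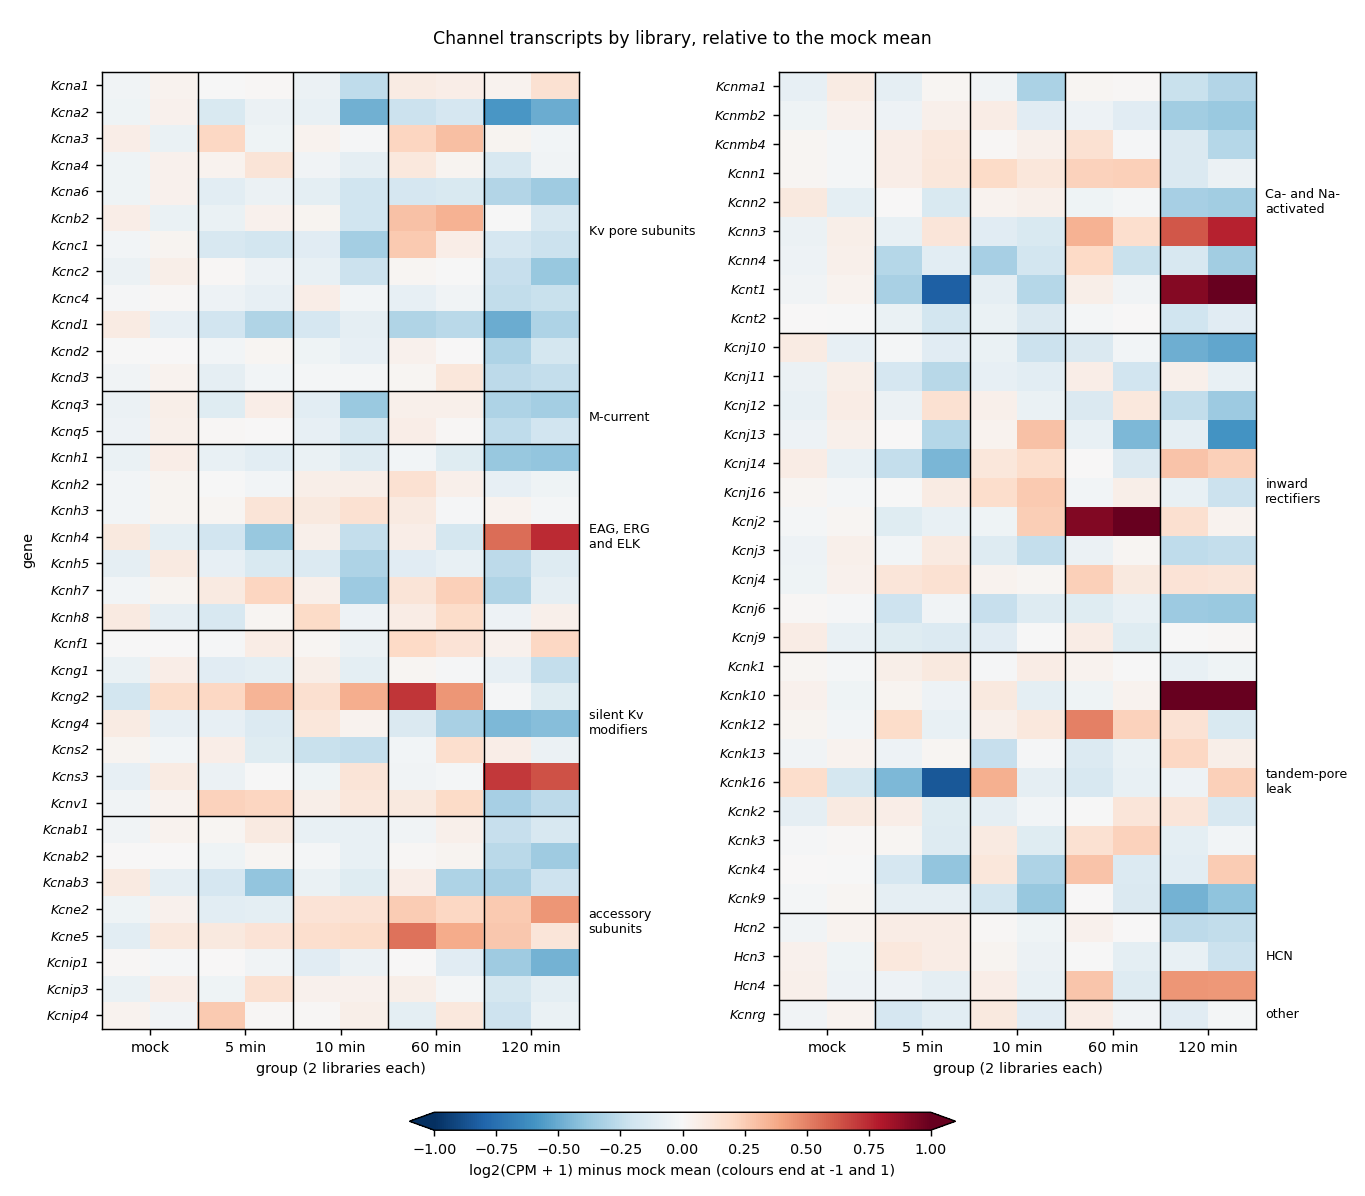
Log2(CPM + 1) of 69 of the 73 genes in each library minus the mock mean, by family, with columns in the order mock, 5, 10, 60 and 120 min (2 libraries each) and colours from blue (below mock) to red (above). The 120 min columns hold 24 of the 27 falls and the 7 rises, and Kcnj2 stands out at 60 min.

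At 120 min 34 of 73 members differed from mock, 7 higher and 27 lower. Higher were 9.59% of members, against 20.4% of all genes, and lower were 37% of members, against 16.9% of all genes. The median log2 fold change was -0.15 for the members and -0.01 for all genes. The falls were small, the largest -0.54 log2 units, and 0 of the 27 reached a change of 2-fold, while the rises ran from 0.35 to 1.67. The genes that fell stood at a median of 35.6 CPM in mock, those that rose at 9.25 CPM and those not called at 5.84 CPM. Of the 27 falls 16 were called in all 10 refits that left out a library, and of the 7 rises 5 were. The authors' deposited table holds all 34 in the same direction and adds Kcnj14 (higher, 22.8% of all genes in the authors' deposited table) and Kcnj12 (lower, 18.8%).

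Neuronal markers fell in the same libraries as the channels. The 8 neuronal markers summed to 2980 and 3079 CPM at 120 min, against 3484 and 3671 CPM in mock, with 5 of 8 called lower and a median log2 fold change of -0.24. The 5 markers of GABAergic neurons summed to 770 and 798 CPM at 120 min, against 874 and 899 CPM in mock, and 2 of 5 were lower. The 7 astrocyte markers summed to 19298 and 18416 CPM at 120 min, against 17250 and 17330 CPM in mock, with 2 of 7 higher, Gfap and Slc1a3, and 0 lower. The other 5 astrocyte markers lay below 0, and the median log2 fold change of the 7 was -0.03. All 7 microglial markers were lower, at a sum of 185 and 178 CPM at 120 min, against 248 and 249 CPM in mock. The 9 oligodendrocyte-lineage markers summed to 1439 and 1389 CPM at 120 min, against 1606 and 1529 CPM in mock, and 2 of 9 were lower. Of the vascular and fibroblast markers 3 of 7 were measured. They summed to 2075 and 1911 CPM at 120 min, against 2265 and 2420 CPM in mock, and 2 of 3 were lower. In these bulk samples neither neuron number nor RNA per neuron was measured, and the sums are on the TMM scale, relative to the measured transcripts of the whole dish. The cause of the marker fall cannot be told from them and was not tested.

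The falls depended on what the channels were measured against. When values were scaled to the summed neuronal markers, a choice made after seeing the data, 2 members were lower at 120 min, Kcna2 and Kcnj10, in place of 27 (1.33% of all genes lower under that scaling). All 7 rises were called under that scaling, and Kcna1, Kcne5, Kcnf1, Kcnh3, Kcnj14 and Kcnj4 were added, which made 13 (50.7% of all genes higher under that scaling). That scaling moved the median of all genes to 0.22, and the median of the members to 0.07. With library totals as the scale 31 members were lower (42.5%, against 26.9% of all genes) and 7 higher (9.59%, against 15.4%). Each fall reported below at 120 min is therefore on the TMM scale, relative to the measured transcripts of the whole dish. Except in Kcna2 and Kcnj10 these falls did not pass relative to neuronal markers.

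**Figure D3:**
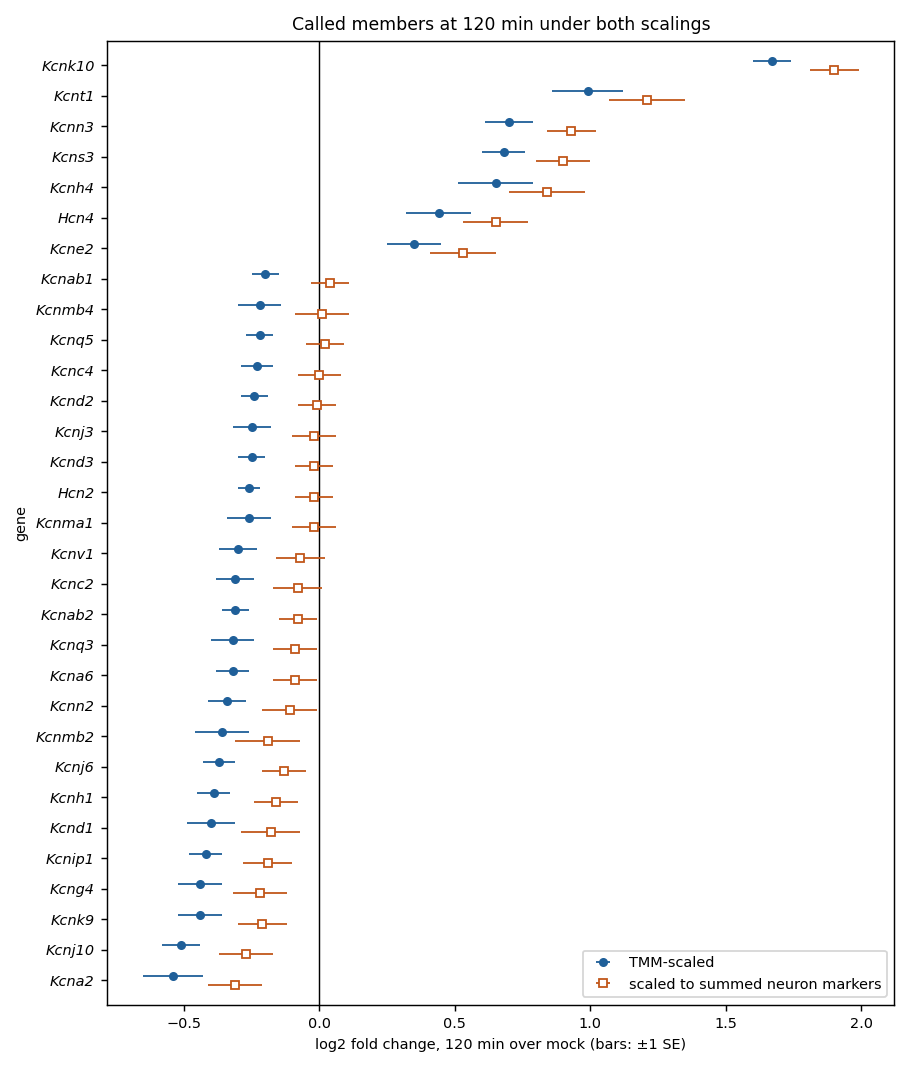
Log2 fold change at 120 min over mock for 31 of the 34 called genes, with bars of 1 SE, scaled by TMM factors (filled) and by the summed neuronal markers (open). The 7 rises, led by Kcnk10 at 1.67 and 1.90, lie right of 0 under both scalings, while most of the falls lie near 0 under the neuronal scaling.

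The tandem-pore leak channels held the largest change of any member. Kcnk10 (chromosome 6, 122419046 to 122545899, rn6) encodes TREK-2, a leak channel opened by stretch, heat and fatty acids. Kcnk10 was measured at 31.1 and 29.3 CPM in mock, 30.7 and 29.1 CPM at 5 min, 32.4 and 28.2 CPM at 10 min, 29.2 and 31 CPM at 60 min and 98.5 and 97.5 CPM at 120 min. The first 4 groups overlapped and both 120 min libraries lay far above them. The rise over mock was 3.18-fold (log2 fold change 1.67 at 120 min, SE 0.07, limma adjusted p = 3.3e-09), and the rise over 60 min was of the same size (log2 difference 1.67 from 60 min, SE 0.07, limma adjusted p = 8.6e-09). Scaled to neuronal markers the log2 fold change was 1.90. Kcnk9 fell at 120 min (log2 fold change -0.44 at 120 min, SE 0.08, limma adjusted p = 0.0012). Kcnk1 had levels of 52.5 and 50.8 CPM in mock, 53.9 and 55.2 CPM at 5 min, 51.1 and 54.5 CPM at 10 min, 52.8 and 51.5 CPM at 60 min and 49 and 50 CPM at 120 min. Kcnk1 encodes TWIK-1, a leak channel of neurons and astrocytes, and did not pass at 120 min (log2 fold change -0.06 at 120 min, SE 0.05, limma adjusted p = 0.37). The remaining 6 leak channels were not called at 120 min. Summed over the 9 members the family stood at 221 and 214 CPM at 120 min, against 156 and 157 CPM in mock, a difference of 38.9% that Kcnk10 carries.

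Among calcium- and sodium-activated channels 2 of 9 rose (22.2%, against 20.4% of all genes) and 4 of 9 fell (44.4%, against 16.9%) at 120 min. Kcnt1 (chromosome 3, 3325770 to 3363459, rn6), whose values by library are given above, was at 18.4 and 20.3 CPM at 120 min, against 9 and 9.5 CPM in mock (log2 fold change 0.99 at 120 min, SE 0.13, limma adjusted p = 0.00015). Kcnn3 was at 12.6 and 13.7 CPM in mock, 12.4 and 14.4 CPM at 5 min, 12.1 and 11.7 CPM at 10 min, 17 and 14.9 CPM at 60 min and 20.8 and 23.1 CPM at 120 min. Kcnn3 encodes the small-conductance channel SK3, which contributes to the afterhyperpolarization, and both 120 min libraries lay above all others (log2 fold change 0.70 at 120 min, SE 0.09, limma adjusted p = 0.00011). The difference between 120 and 60 min was also called for Kcnt1 (log2 difference 0.97 from 60 min, SE 0.13, limma adjusted p = 0.0002) and for Kcnn3 (log2 difference 0.44 from 60 min, SE 0.09, limma adjusted p = 0.0031).

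The SK2 gene moved the other way from the SK3 gene. Kcnn2 stood at 37.4 and 32.4 CPM in mock, 34.9 and 31.2 CPM at 5 min, 35.6 and 36.1 CPM at 10 min, 33.8 and 34.3 CPM at 60 min and 27.4 and 27.1 CPM at 120 min. Kcnn2 encodes SK2, which limits synaptic potentials in hippocampal spines (log2 fold change -0.34 at 120 min, SE 0.07, limma adjusted p = 0.0034). Kcnma1 was measured at 61.4 and 69.1 CPM in mock, 61.3 and 66.2 CPM at 5 min, 63.5 and 52.1 CPM at 10 min, 66.1 and 65.5 CPM at 60 min and 55.7 and 52.9 CPM at 120 min. Kcnma1 encodes the pore of the large-conductance BK channel (log2 fold change -0.26 at 120 min, SE 0.08, limma adjusted p = 0.031). Kcnmb4 had levels of 15.3 and 14.8 CPM in mock, 15.8 and 16.3 CPM at 5 min, 15.2 and 15.6 CPM at 10 min, 16.8 and 14.9 CPM at 60 min and 13.5 and 12.2 CPM at 120 min. Kcnmb4 is the neuronal BK beta subunit (log2 fold change -0.22 at 120 min, SE 0.08, limma adjusted p = 0.042). Kcnmb2 was at 2.79 and 3.03 CPM in mock, 2.78 and 3.05 CPM at 5 min, 3.12 and 2.62 CPM at 10 min, 2.78 and 2.62 CPM at 60 min and 2.07 and 2.02 CPM at 120 min. Kcnmb2 encodes the BK beta subunit that confers inactivation (log2 fold change -0.36 at 120 min, SE 0.10, limma adjusted p = 0.017). Kcnma1 and Kcnmb2 were each called in 7 of 10 refits that left out a library and Kcnmb4 in 5 of 10. The BK pore gene and both of its measured beta subunit genes were thus called lower at 120 min, as were 16.9% of all genes. Relative to the summed neuronal markers the log2 fold change was -0.02 for Kcnma1, 0.01 for Kcnmb4 and -0.19 for Kcnmb2. None of these was called under that scaling.

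Voltage-gated pore subunits of the Kv1 to Kv4 groups fell or did not pass at 120 min. Lower were 8 of 14 (57.1%, against 16.9% of all genes), and 0 were higher (20.4% of all genes). Kcna2 stood at 29.8 and 31.7 CPM in mock, 27.6 and 29.5 CPM at 5 min, 29.1 and 21.7 CPM at 10 min, 26.3 and 27.3 CPM at 60 min and 20.2 and 21.5 CPM at 120 min. Kcna2 encodes Kv1.2, an axonal low-threshold subunit, and had the lowest fold change of all members (log2 fold change -0.54 at 120 min, SE 0.11, limma adjusted p = 0.002). It was called relative to neuronal markers too (log2 fold change -0.31, limma adjusted p = 0.015). Kcna1 was measured at 39.5 and 41.5 CPM in mock, 40.3 and 40.9 CPM at 5 min, 38.9 and 33.8 CPM at 10 min, 42.9 and 42.4 CPM at 60 min and 41.4 and 45 CPM at 120 min. Kcna1 encodes Kv1.1, which assembles with Kv1.2 in axons, and its 120 min and mock libraries overlapped (log2 fold change 0.09 at 120 min, SE 0.07, limma adjusted p = 0.33). Kcna6 had levels of 45.2 and 47.9 CPM in mock, 43.2 and 44.6 CPM at 5 min, 43.3 and 40.4 CPM at 10 min, 41.3 and 41.7 CPM at 60 min and 37.8 and 36.2 CPM at 120 min. Kcna6 encodes Kv1.6 (log2 fold change -0.32 at 120 min, SE 0.06, limma adjusted p = 0.00079).

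The A-type channels of the Kv4 group all fell at 120 min. Kcnd1 was at 13 and 11.5 CPM in mock, 10.6 and 9.72 CPM at 5 min, 10.8 and 11.4 CPM at 10 min, 9.72 and 10 CPM at 60 min and 8.37 and 9.69 CPM at 120 min. Kcnd1 encodes Kv4.1 (log2 fold change -0.40 at 120 min, SE 0.09, limma adjusted p = 0.0044). Kcnd2 stood at 76.3 and 77.1 CPM in mock, 75.3 and 77.9 CPM at 5 min, 74.4 and 72.3 CPM at 10 min, 79.1 and 76.9 CPM at 60 min and 61.9 and 67.6 CPM at 120 min. Kcnd2 encodes Kv4.2, the main A-type channel of pyramidal cell dendrites, and both 120 min libraries lay below the other 8 (log2 fold change -0.24 at 120 min, SE 0.05, limma adjusted p = 0.0029). Kcnd3, which encodes Kv4.3, was at 48.8 and 49.6 CPM at 120 min, against 57.2 and 60.3 CPM in mock (log2 fold change -0.25 at 120 min, SE 0.05, limma adjusted p = 0.0024). Relative to the summed neuronal markers the Kcnd2 log2 fold change was -0.01 and that of Kcnd3 -0.02.

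Kcnc2 was measured at 22.3 and 24.4 CPM in mock, 23.5 and 22.5 CPM at 5 min, 22.1 and 20 CPM at 10 min, 23.7 and 23.2 CPM at 60 min and 19.7 and 17.7 CPM at 120 min. Kcnc2 encodes Kv3.2, a fast channel of fast-spiking interneurons (log2 fold change -0.31 at 120 min, SE 0.07, limma adjusted p = 0.0072). Kcnc4, of the same group, fell by 0.23 log2 units at 120 min. Kcnb2 had levels of 12.2 and 11.1 CPM in mock, 11.1 and 12 CPM at 5 min, 11.9 and 10 CPM at 10 min, 14.5 and 15.1 CPM at 60 min and 11.6 and 10.3 CPM at 120 min. Kcnb2 encodes the delayed rectifier Kv2.2, which was not called at 120 min against mock (log2 fold change -0.08 at 120 min, SE 0.09, limma adjusted p = 0.51) and was lower at 120 min than at 60 min (log2 difference -0.41 from 60 min, SE 0.09, limma adjusted p = 0.0058). Kcna3, Kcna4 and Kcnc1 were not called at 120 min. Summed over the 14 genes the Kv1 to Kv4 groups stood at 407 and 416 CPM at 120 min, against 474 and 482 CPM in mock.

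The M-current genes Kcnq3 and Kcnq5 fell at 120 min. Kcnq3, given above by library, was at 54.4 and 53.3 CPM at 120 min, against 64.8 and 70.5 CPM in mock (log2 fold change -0.32 at 120 min, SE 0.08, limma adjusted p = 0.011). Kcnq5 was at 63.8 and 68.5 CPM in mock, 66.5 and 66.4 CPM at 5 min, 62.5 and 58.3 CPM at 10 min, 69.2 and 66.7 CPM at 60 min and 55.4 and 57.9 CPM at 120 min. Kcnq5 encodes another M-channel subunit (log2 fold change -0.22 at 120 min, SE 0.05, limma adjusted p = 0.0071). Relative to neuronal markers Kcnq5 lay on the other side of 0, at 0.02 log2 units, and Kcnq3 at -0.09, and neither passed.

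The EAG, ERG and ELK family held 1 rise and 1 fall among 7 members at 120 min (14.3% each, against 20.4% and 16.9% of all genes). Kcnh4 stood at 2.47 and 2.04 CPM in mock, 1.85 and 1.5 CPM at 5 min, 2.36 and 1.75 CPM at 10 min, 2.41 and 1.88 CPM at 60 min and 3.79 and 4.44 CPM at 120 min. Kcnh4 encodes the ELK channel Kv12.3, which opens near rest, and rose (log2 fold change 0.65 at 120 min, SE 0.14, limma adjusted p = 0.0034). Kcnh1 was measured at 30.9 and 33.8 CPM in mock, 30.7 and 30 CPM at 5 min, 30.8 and 29.5 CPM at 10 min, 31.7 and 29.7 CPM at 60 min and 24.6 and 24.3 CPM at 120 min. Kcnh1 encodes the EAG channel Kv10.1 and fell (log2 fold change -0.39 at 120 min, SE 0.06, limma adjusted p = 0.00045). Kcnh3 had levels of 33.5 and 34.7 CPM in mock, 34.6 and 37.3 CPM at 5 min, 36.5 and 37.9 CPM at 10 min, 36.4 and 33.9 CPM at 60 min and 35 and 33.7 CPM at 120 min. Kcnh3 encodes Kv12.2, a relative of Kcnh4 that damps pyramidal cell firing in mice, and did not pass (log2 fold change 0.01 at 120 min, SE 0.06, limma adjusted p = 0.91). The Kcnh3 gene overlaps Mcrs1 on the opposite strand and Spats2 on the same strand, and whether the counting used strand is not stated, so its reads may be shared. Kcnh7 was at 10.8 and 11.3 CPM in mock, 11.8 and 13 CPM at 5 min, 11.5 and 8.35 CPM at 10 min, 12.2 and 13.2 CPM at 60 min and 8.79 and 10.3 CPM at 120 min. Kcnh7 encodes the ERG channel Kv11.3 and was called lower at 120 min relative to 60 min (log2 difference -0.38 from 60 min, SE 0.12, limma adjusted p = 0.028).

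Among the silent Kv subunits 1 of 7 rose (14.3%, against 20.4% of all genes) and 2 fell (28.6%, against 16.9%) at 120 min. Kcns3 stood at 9.85 and 11.1 CPM in mock, 9.98 and 10.4 CPM at 5 min, 10.1 and 11.5 CPM at 10 min, 10.2 and 10.3 CPM at 60 min and 17.7 and 16.8 CPM at 120 min. Kcns3 encodes Kv9.3, which slows Kv2 channels, and its 120 min libraries lay above all others (log2 fold change 0.68 at 120 min, SE 0.08, limma adjusted p = 6.4e-05). Kcng4 was measured at 16.3 and 14.5 CPM in mock, 14.5 and 13.9 CPM at 5 min, 16.7 and 15.8 CPM at 10 min, 13.8 and 12.1 CPM at 60 min and 11 and 11.2 CPM at 120 min. Kcng4 encodes Kv6.4 and fell (log2 fold change -0.44 at 120 min, SE 0.08, limma adjusted p = 0.0013). Kcnv1 had levels of 15.8 and 16.7 CPM in mock, 19.2 and 19 CPM at 5 min, 17 and 17.7 CPM at 10 min, 17.5 and 18.7 CPM at 60 min and 12.7 and 13.4 CPM at 120 min. Kcnv1 encodes Kv8.1, which suppresses Kv2 currents, and fell (log2 fold change -0.30 at 120 min, SE 0.07, limma adjusted p = 0.0047). Kcnf1 was at 32.9 and 33.1 CPM in mock, 32.8 and 34.8 CPM at 5 min, 33.4 and 31.7 CPM at 10 min, 38.1 and 36.4 CPM at 60 min and 34 and 38.2 CPM at 120 min. Kcnf1 encodes Kv5.1 and did not pass (log2 fold change 0.12 at 120 min, SE 0.06, limma adjusted p = 0.15). These subunits have Kv2 channels as partners, and the Kv2 pore gene Kcnb2 was not called at 120 min.

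**Figure D4:**
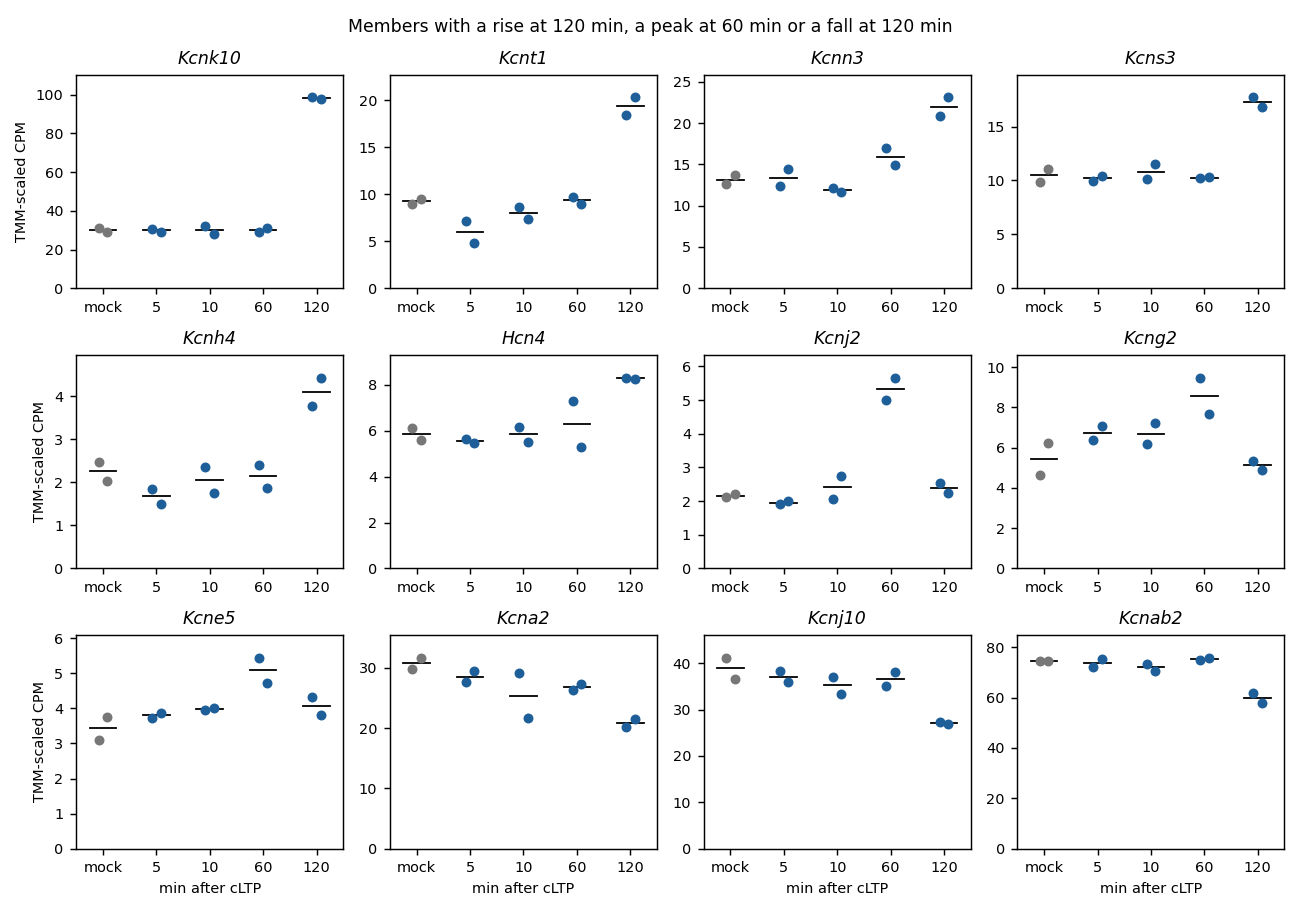
TMM-scaled CPM of 12 members in each library (points) with the group mean (line), for mock (grey) and 5, 10, 60 and 120 min (blue), on axes that start at 0. Kcnk10 reached 98.5 and 97.5 CPM at 120 min, against 31.1 and 29.3 CPM in mock, and Kcnj2 peaked at 5 and 5.67 CPM at 60 min.

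Of the 8 accessory subunit genes 1 rose (12.5%, against 20.4% of all genes) and 3 fell (37.5%, against 16.9%) at 120 min. Kcnab2 stood at 74.4 and 74.4 CPM in mock, 72.1 and 75.3 CPM at 5 min, 73.2 and 70.8 CPM at 10 min, 75.1 and 75.9 CPM at 60 min and 61.7 and 57.8 CPM at 120 min. Kcnab2 encodes the cytoplasmic Kv beta 2 subunit, which travels with Kv1 channels to the axon, and both 120 min libraries lay below the other 8 (log2 fold change -0.31 at 120 min, SE 0.05, limma adjusted p = 0.00035). Kcnab1 was measured at 60.3 and 63.7 CPM in mock, 63 and 66.1 CPM at 5 min, 58.7 and 58.7 CPM at 10 min, 60.6 and 64.4 CPM at 60 min and 52.6 and 55.3 CPM at 120 min. Kcnab1 encodes Kv beta 1, which confers inactivation on Kv1 channels (log2 fold change -0.20 at 120 min, SE 0.05, limma adjusted p = 0.012). Kcnip1 had levels of 27.9 and 27.3 CPM in mock, 27.6 and 26.9 CPM at 5 min, 25.4 and 26.5 CPM at 10 min, 27.6 and 25.4 CPM at 60 min and 21.3 and 19.6 CPM at 120 min. Kcnip1 encodes KChIP1, a calcium sensor that binds Kv4 channels (log2 fold change -0.42 at 120 min, SE 0.06, limma adjusted p = 0.00037). Kcne2 was at 1.88 and 2.07 CPM in mock, 1.76 and 1.78 CPM at 5 min, 2.27 and 2.28 CPM at 10 min, 2.54 and 2.43 CPM at 60 min and 2.57 and 3.03 CPM at 120 min. Kcne2 encodes a single-pass subunit that also modifies HCN channels, and rose (log2 fold change 0.35 at 120 min, SE 0.10, limma adjusted p = 0.019), called in 8 of 10 refits that left out a library.

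Among inward rectifiers 3 of 11 fell (27.3%, against 16.9% of all genes) and 0 rose (20.4% of all genes) at 120 min. Kcnj10 stood at 41.2 and 36.7 CPM in mock, 38.3 and 35.9 CPM at 5 min, 37 and 33.4 CPM at 10 min, 35 and 38.1 CPM at 60 min and 27.4 and 26.8 CPM at 120 min. Kcnj10 encodes Kir4.1, the channel through which astrocytes take up potassium (log2 fold change -0.51 at 120 min, SE 0.07, limma adjusted p = 0.00023). Its fall was called relative to neuronal markers too (log2 fold change -0.27, limma adjusted p = 0.027). Of the 7 astrocyte markers Gfap and Slc1a3 were higher in the same libraries and the other 5 had log2 fold changes below 0 that did not pass, with a median of -0.03 over the 7. The part of astrocyte content in this fall was not tested. Kcnj16, the glial partner, was at 33.1 and 30 CPM at 120 min, against 35.5 and 34.4 CPM in mock (log2 fold change -0.15 at 120 min, SE 0.06, limma adjusted p = 0.098). Kcnj6 was measured at 44.4 and 43.5 CPM in mock, 37.9 and 42.8 CPM at 5 min, 37.4 and 40 CPM at 10 min, 40.3 and 41.8 CPM at 60 min and 34 and 33.7 CPM at 120 min. Kcnj6 encodes GIRK2, a channel opened by G protein-coupled receptors (log2 fold change -0.37 at 120 min, SE 0.06, limma adjusted p = 0.0008). Kcnj3, which encodes its partner GIRK1, fell by 0.25 log2 units, and Kcnj9, which encodes GIRK3, was not called. Kcnj4 had levels of 49.2 and 52.2 CPM in mock, 55.1 and 56.5 CPM at 5 min, 51.9 and 51.5 CPM at 10 min, 60 and 54.4 CPM at 60 min and 55.7 and 55.3 CPM at 120 min. Kcnj4 encodes Kir2.3, a close relative of Kcnj2, and did not pass (log2 fold change 0.13 at 120 min, SE 0.06, limma adjusted p = 0.089).

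Among the HCN genes, Hcn2 fell and Hcn4 rose at 120 min. Hcn2 was at 74.5 and 78.4 CPM in mock, 80.4 and 80.4 CPM at 5 min, 77.2 and 74.3 CPM at 10 min, 78.8 and 76.7 CPM at 60 min and 63.5 and 64.2 CPM at 120 min. Hcn2 encodes a slow, cyclic AMP-sensitive channel, and both 120 min libraries lay below the other 8 (log2 fold change -0.26 at 120 min, SE 0.04, limma adjusted p = 0.00095). Hcn3 stood at 13.6 and 12.7 CPM in mock, 14.2 and 13.9 CPM at 5 min, 13.4 and 12.6 CPM at 10 min, 13.1 and 12.2 CPM at 60 min and 12.4 and 11.2 CPM at 120 min. Hcn3 was not called at 120 min (log2 fold change -0.14 at 120 min, SE 0.08, limma adjusted p = 0.16). Hcn4 was measured at 6.12 and 5.61 CPM in mock, 5.62 and 5.45 CPM at 5 min, 6.18 and 5.5 CPM at 10 min, 7.31 and 5.29 CPM at 60 min and 8.32 and 8.26 CPM at 120 min. Hcn4 encodes the slowest and most cyclic AMP-sensitive member, the pacemaker channel of the heart, and both 120 min libraries lay above the other 8 (log2 fold change 0.44 at 120 min, SE 0.12, limma adjusted p = 0.013), called in 7 of 10 refits that left out a library. Per kilobase in mock, Hcn2 stood at 30.3, Hcn3 at 5.62 and Hcn4 at 1.49 CPM per kb, so the gene that rose was the lowest of these. Relative to the summed neuronal markers Hcn2 had a log2 fold change of -0.02 and was not called, while Hcn4 had 0.65.

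Set directly against 60 min, the 120 min cultures differed in 38 members, 7 higher (19.8% of all genes) and 31 lower (16% of all genes), with a median log2 difference of -0.18 for the members and 0.00 for all genes. Scaled to neuronal markers, 12 were higher (51% of all genes) and 2, Kcng2 and Kcnj2, were lower (1.79% of all genes). A change at any time was called for 41 of 73 members (56.2%), against 41.3% of all genes. These any-time counts depended on which libraries were in the fit, for the members and for all genes. Comparisons with mock share the mock libraries.

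Genes whose products bind, anchor or regulate these channels were followed through a list of 45, of which 37 were measured. At 60 min 2 of 37 were higher, Sgk1 and Rgs4, and 0 lower. These were 5.41% of the list, near the 4.64% of all genes that were higher, and without the second 60 min library 1 was higher (2.7%, against 4.02% of all genes). At 120 min 4 of 37 were higher (10.8%, against 20.4% of all genes) and 17 lower (45.9%, against 16.9%). The median log2 fold change was -0.16 for the list and -0.01 for all genes. Rest, a transcriptional repressor of neuronal genes including channels, was at 40.2 and 39.8 CPM at 120 min, against 22.6 and 23.1 CPM in mock (log2 fold change 0.78 at 120 min, SE 0.06, limma adjusted p = 1.3e-06). Sgk1, a kinase that raises channel surface levels, was at 115 CPM in both 120 min libraries, against 78.9 and 77.5 CPM in mock (log2 fold change 0.55 at 120 min, SE 0.05, limma adjusted p = 1e-05). Rgs4, which shortens G protein signalling to GIRK channels, was at 311 and 341 CPM at 120 min, against 255 and 254 CPM in mock (log2 fold change 0.35 at 120 min, SE 0.05, limma adjusted p = 0.00033). Dlg1, a scaffold that binds Kv1 and Kir2 channels, was at 66.1 and 71.1 CPM, against 55.5 and 55.3 CPM in mock (log2 fold change 0.30 at 120 min, SE 0.06, limma adjusted p = 0.0031).

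The falls in the partner list included both GABA-B receptor subunits, which open GIRK channels. Gabbr2 was at 186 and 184 CPM at 120 min, against 234 and 244 CPM in mock (log2 fold change -0.37 at 120 min, SE 0.04, limma adjusted p = 3.3e-05), and Gabbr1 at 873 and 875 CPM, against 1076 and 1071 CPM in mock (log2 fold change -0.30 at 120 min, SE 0.04, limma adjusted p = 0.00026). Adam23, which binds LGI1 beside Kv1 channels, was at 102 and 100 CPM at 120 min, against 122 and 123 CPM in mock (log2 fold change -0.27 at 120 min, SE 0.05, limma adjusted p = 0.0022). Chrm1, the muscarinic receptor that closes M-channels, was at 32.4 and 31.1 CPM at 120 min, against 39.8 and 41.2 CPM in mock (log2 fold change -0.34 at 120 min, SE 0.07, limma adjusted p = 0.0025). Scaled to the summed neuronal markers, 0 of the partner genes were lower at 120 min (1.33% of all genes) and 13 were higher (35.1%, below the 50.7% of all genes). Without the second mock library 5 partners were called lower (13.5%, against 9.65% of all genes). Without the first or the second 120 min library 8 were (21.6%, against 10.7% and 9.52% of all genes).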

How the data were processed

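Poly(A) RNA of 10 cultures was sequenced. The submitters' processing notes name build rn6 with bcl2fastq, TopHat2 2.1.0, HTSeq and edgeR. No source used here states the annotation, whether counting used strand or how low genes were filtered. The authors deposited CPM per gene and library for 11615 genes. Per the file headers, the authors' deposited table also holds a log2 fold change and adjusted p-value of each time against mock, and a length for each gene. The mock columns are repeated beside each time with identical values, and the 6 copies were not used. In 22 of the deposited lines a number stands in place of the symbol; they were tested but not named.

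From the deposited CPM, TMM factors were computed (30% of log ratios and 5% of levels trimmed) and log2(CPM + 1) was fitted in limma 3.58.1 (R 4.3.3) over the 5 groups, leaving 5 residual degrees of freedom, and the prior variance followed an intensity trend. The contrasts were each time minus mock and 120 min minus 60 min. The p-values measure the spread between the 2 labelled biological repeats; nothing used here says that these were separate preparations. Within each library all CPM values lay within 0.01 reads of whole multiples of a single step, which gave the read totals.

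The members, the lists and the rule for named genes were chosen with earlier results of these data known. The rule names every member called at 5, 10 or 60 min, up to 15 rises and 15 falls at 120 min against mock and 6 of each against 60 min, the 3 members of smallest p at 5 and 10 min where fewer were called, the 2 highest of each family per kb, HCN genes, and up to 4 partner genes in each direction. Some genes that this rule takes are not reported here. Other genes named in the text were chosen after their values were seen. Gene positions are the authors' (rn6); upstream sequences are from RefSeq (GRCr8). Alternatives covered scaling, pseudocount, filter, threshold, model, repeat block and left-out libraries. The fits were tested on simulated data. Figures were drawn with matplotlib 3.10.9.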

Additional observations from a re-analysis of the deposited data

Results flagged for a closer look

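The effect at 120 min differed from the effect at 60 min in 38 members, by the direct limma comparison of 120 min with 60 min at an adjusted p under 0.05. Both effects are measured against the same mock libraries, which cancel in that comparison. Differences of at least 0.5 log2 units are given here, a size set after the values were seen. Kcnk10 (1.67), Kcnt1 (0.97), Kcnh4 (0.70) and Kcns3 (0.70) had the larger effect at 120 min. Kcng2 (-0.64) and Kcnj2 (-0.90) had it at 60 min. These 6 differences were called in all 10 refits that left out a library, and they were called under scaling to the summed neuronal markers too.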

How the results depend on the processing

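Of 60 calls on named members, 0 changed sign under the alternatives planned at the outset, and 38 passed at an adjusted p under 0.05 under all of them. Limma-voom, library totals, median-of-ratios factors, pseudocounts of 0.1 and 5, a filter at a mean of 2 CPM, fits of only the groups compared, a fit without the 5 min libraries and the replicate block ended none of the 60. A constant prior variance ended 2 and a threshold of 0.01 ended 16. The repeat numbers were not taken to pair the libraries, since 3 of 10 pairs of groups had correlations of same-numbered deviations over 0.1 (range -0.16 to 0.27). With the replicate block 8 members were higher and 27 lower at 120 min, beside 2341 higher and 1946 lower of all 11615 genes. At 10 min 1 gene of all was lower with it.

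Scaling to the summed neuronal markers, added after seeing the data, kept 21 of the 60 calls. The sign turned in 5, with log2 values of 0.02 for Kcnq5, 0.04 for Kcnab1 and 0.01 for Kcnmb4 at 120 min against mock, and 0.07 for Kcna6 and 0.02 for Kcnab1 against 60 min. Under it 13 members were higher and 2 lower at 120 min, 12 and 2 against 60 min, and 21 changed at any time. Partner genes were 13 higher and 0 lower at 120 min, and 9 and 0 against 60 min. Over all genes it called 5883 higher and 155 lower at 120 min, 5926 and 208 against 60 min, 103 lower at 60 min and 1 lower at 10 min. Genes of all changed at any time were 6064, against 4802 with TMM factors, while the members went from 41 to 21. With library totals 1786 genes were higher and 3123 lower at 120 min, against 2367 and 1960 with TMM factors.

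At an adjusted p under 0.01 there were 1 member higher at 60 min and 22 members changed at any time. Of the partner genes 9 were then lower at 120 min, and 1 higher and 11 lower against 60 min. Over all genes the same threshold left 1 higher at 10 min, 90 lower at 60 min, 1090 lower at 120 min, 1006 lower against 60 min and 2643 changed at any time. Without both 5 min libraries 5 members were higher at 60 min, and over all genes 9 were higher and 3 lower at 10 min. The 4 genes higher at 10 min became 2 with library totals, median-of-ratios factors, limma-voom, the 2 CPM filter, a pseudocount of 5 or only the groups compared, and 0 with a constant prior variance.

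Leaving out 1 library at a time gave 0 to 3 members lower at 5 min, 1 to 4 higher at 60 min, 5 to 8 higher and 18 to 28 lower at 120 min, 5 to 7 higher and 21 to 33 lower against 60 min, and 22 to 45 changed at any time. Partner genes ranged over 0 to 1 higher at 5 min, 1 to 2 higher at 60 min, 5 to 18 lower at 120 min, and 1 to 2 higher and 10 to 20 lower against 60 min. All genes ranged over 0 to 111 higher and 0 to 582 lower at 5 min, 0 to 9 higher and 0 to 3 lower at 10 min, 347 to 611 higher and 89 to 273 lower at 60 min, 1106 to 2252 lower at 120 min, 1095 to 2154 lower against 60 min, and 2489 to 5732 changed at any time. Where such a refit left a group with 1 library, that library was assumed to vary like the other groups. The causes of these shifts were not tested.

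The planned edgeR and DESeq2 fits were not run. The deposited values are CPM, and of the count-based methods only limma-voom was run, on values scaled back to reads. The 2 libraries a group limit the precision of each value.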
